A study of Mus musculus with 8 samples.

Results

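Circular RNAs (circRNAs) of Klhl3 and Lrp2, a pair of genes that serve opposite ends of the renal tubule, were followed in injured and control mouse kidneys. Every row of the deposited circRNA table whose host gene was Klhl3 or Lrp2 was taken, whatever its level. This gave 4 circRNAs of 6315 and 2 host genes of 2841. Klhl3 held 3 of them, mmu_circ_0004687, mmu_circ_0004688 and mmu_circ_0004689, and Lrp2 held 1, mmu_circ_0010128. Names are circBase identifiers, circBase being a catalogue of circRNAs.

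A circRNA forms when the end of an exon is joined backwards to the start of the same or an earlier exon, which closes the RNA into a ring without free ends. Klhl3 encodes a Kelch-like adaptor that brings the WNK kinases to the Cullin-3 ubiquitin ligase for degradation; in the distal convoluted tubule WNK kinases act through the kinases SPAK (gene Stk39) and OSR1 (gene Oxsr1) on the thiazide-sensitive salt cotransporter, and mutations of KLHL3 cause a familial form of hypertension with high potassium. Lrp2 encodes megalin, the large endocytic receptor of the proximal tubule brush border that, together with cubilin, takes filtered proteins back from the urine. What is reported here is the circular RNA of these hosts; their linear transcripts and proteins were not analysed here, and a circRNA level need not follow either.

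The study compared 3 groups of total RNA libraries from whole kidney of mice labelled strain C57BL/6L, aged 8 to 10 weeks, with 3 control libraries, 2 of a group called acute-chronic (AC) and 3 of kidneys with unilateral ureteral obstruction (UUO). The series' design text has kidneys removed at day 5 and names ischaemia/reperfusion, UUO and sham operation, whereas the sample titles call the controls WT; no label ties the name AC to ischaemia/reperfusion. The AC and UUO titles also give day 5, and the control titles give no day. No transgene, sex or pooling of animals is given. Library totals lay between 40865 and 65145 counts. Each count stood for 18.9 to 29.2 CPM (circRNA counts scaled to a common library total, with TMM factors) among the circRNAs that passed the filter on low counts. Levels below are for whole kidney, where fewer cells of a type and less circRNA per cell cannot be told apart.

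Markers that could check the cells behind these libraries were thin. Of 27 marker genes of other kidney and infiltrating cell types, 26 had no row in the tables used here. The 1 with rows, the endothelial receptor gene Flt1, did not reach the filter, with 5 to 6 counts per library in control, 0 and 5 in AC and 0 to 7 in UUO. Of 41 other proximal tubule genes 2 had rows, and of 32 distal transport genes 4 had rows. The injury marker list of 16 genes had 1 row, a circRNA of Dcdc2a (mmu_circ_0004549), which rose in UUO by a log2 fold change of 5.14 and in AC by 4.62 (edgeR, adjusted p = 2.9e-08 and 3.52e-07). This list was drawn up with earlier results of these data known, so the rise is no independent check of injury. The part of cell makeup in the results below was not tested.

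The Klhl3 and Lrp2 source transcripts differ greatly in build. The source transcript of Klhl3 circRNAs has 15 exons and 7149 bases, and that of the Lrp2 circRNA 79 exons and 15460 bases, in the GENCODE annotation of build GRCm38. By exon number Lrp2 ranked 13 among 2386 hosts with a matched transcript, whereas Klhl3 sat at the median of 15. Lrp2 nevertheless had a single listed circRNA. Among the 50 hosts with at least 50 exons the median was 2.5 circRNAs, 14 of them had 1 and the highest number was 12. Over all hosts, 52.8% had 1 circRNA and 26.6% had 3 or more.

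By total count over the 8 libraries mmu_circ_0004688 ranked 278 among the 6315 circRNAs, with 288 counts. The Lrp2 circRNA ranked 313, with 260 counts. The next Klhl3 circRNA, mmu_circ_0004687, ranked 658, with 127 counts. The third Klhl3 circRNA, mmu_circ_0004689, was at the limit of detection: it had 1 count, in control replicate 1, and 0 in the other 7 libraries. A count of 0 allows up to 3 counts, which stood for between 56.6 and 87.5 CPM in these 7, so its absence from any group cannot be stated at this depth. It did not pass the filter and was not tested; the other 3 did.

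The circular output of Klhl3 was much lower in both injured groups. Summed over its circRNAs, Klhl3 had 77, 143 and 96 counts in control replicates 1 to 3, 15 and 24 in AC, and 14, 29 and 18 in UUO. As levels these sums were 1883, 2548 and 1856 CPM in control, 326 and 628 CPM in AC, and 326, 603 and 335 CPM in UUO. The sums were scaled in their own fit, so CPM of single circRNAs can add up to more than the sum. The lowest control library was above every injured library, and AC and UUO overlapped. Control averaged 2095 ± 392 CPM (SD, n = 3), while the injured kidneys averaged 477 ± 214 CPM (AC, SD, n = 2) and 421 ± 157 CPM (UUO, SD, n = 3).

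Against control the Klhl3 sum fell by 2.31 on the log2 scale in UUO, a 4.95-fold change (SE 0.35, adjusted p = 0.000261, edgeR quasi-likelihood test over 1185 host sums). In AC it fell by 2.15, a 4.44-fold change (SE 0.41, adjusted p = 0.00367). Lower calls at an adjusted p under 0.05 made up 2.78% of host sums in UUO and 1.43% in AC. Libraries that did not overlap, with the injured group lower, occurred in 12.8% of host sums in UUO and 15.9% in AC, so the lack of overlap alone is common. Among the host sums called lower, Klhl3 was the fifth by size of change in both comparisons, of 33 in UUO and 17 in AC. As Klhl3 was chosen with earlier results of these data known, this rank is a description only. Both comparisons use the same control libraries, so their directions are not independent of each other. The UUO call held without any 1 of the 8 libraries, with the change between -2.63 and -2.10; the AC call held without 7 of them, and without AC replicate 1 the AC change was -1.73 (adjusted p = 0.0805).

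AC and UUO were not told apart by the Klhl3 sum. The difference of UUO from AC was -0.16 on the log2 scale with a 95% interval from -1.05 to 0.73 (edgeR, adjusted p = 0.963). In this direct comparison the main edgeR fit called no feature: 0% of 1185 host sums and 0% of 1471 circRNAs. At an unadjusted p under 0.05 there were 71 host sums and 82 circRNAs. DESeq2 called 1 host sum and 2 circRNAs, and limma-voom 0 and 0. With no filter edgeR called 4 circRNAs lower in UUO, and 1 host sum higher and 2 lower. With only the groups compared it called 1 circRNA lower and 1 host sum higher. Without control replicate 1 or without control replicate 2 it called 1 host sum higher. None of these was of Klhl3 or Lrp2. Fits that left AC with 1 library are not counted here. Pooled as 5 injured libraries, the Klhl3 sum differed from control by -2.18 in mean log2 CPM (two-sided exact permutation p = 0.0179, the smallest that 3 against 5 libraries allow; 0.143 after Benjamini-Hochberg adjustment over 16 such tests).

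Both abundant Klhl3 circRNAs were lower in UUO. The major form, mmu_circ_0004688, had 54, 109 and 66 counts in control, 2 and 17 in AC, and 10, 18 and 12 in UUO, or 1436, 2057 and 1365 CPM, then 47.1 and 496 CPM, then 254, 420 and 252 CPM. Every injured library lay below every control library, and AC replicate 1 stood lowest. It fell by 2.38 in UUO (log2 scale, SE 0.49, adjusted p = 0.0132, edgeR over 1471 circRNAs) and by 2.64 in AC (SE 0.59, adjusted p = 0.0220).

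The minor form, mmu_circ_0004687, had 22, 34 and 30 counts in control, 13 and 7 in AC, and 4, 11 and 6 in UUO. Its control levels were the most even of the set, at 585, 642 and 620 CPM, a highest-to-lowest ratio of 1.10. AC stood at 306 and 204 CPM and UUO at 102, 257 and 126 CPM, again with no injured library reaching the controls. It fell by 1.91 in UUO (SE 0.50, adjusted p = 0.0419, edgeR). In AC its log2 fold change was -1.25 (SE 0.56) and did not pass (adjusted p = 0.316).

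Of the 3 tested circRNAs of both hosts, 2 were thus called lower in UUO and 1 in AC. Over all 1471 tested circRNAs, 1.5% were called lower in UUO and 1.43% in AC. Of the 3, 2 had injured libraries wholly below control in each comparison, where 11% of all circRNAs did in UUO and 15.4% in AC. Because both hosts were chosen with earlier results of these data known, these shares are a description and no test of enrichment. The Klhl3 calls per circRNA were less stable than that of the sum. Leaving out 1 library at a time, mmu_circ_0004688 kept its call in 5 of 8 fits in UUO and 6 of 8 in AC, and mmu_circ_0004687 in 2 of 8 in UUO. Leaving out any UUO library ended the call for mmu_circ_0004688 in UUO, with changes of -2.26, -2.66 and -2.27 (adjusted p = 0.0632, 0.0620 and 0.0768, edgeR). In the same fits the lower calls over all circRNAs went from 22 to 11, 2 and 7. Leaving out control replicate 3 (-2.79, adjusted p = 0.0558) or AC replicate 1 (-1.75, adjusted p = 0.134) ended its call in AC, by edgeR, and without AC replicate 2 its AC change was -5.05, resting on the 2 counts of AC replicate 1. For mmu_circ_0004687 leaving out any control or UUO library ended the UUO call, with changes from -2.39 to -1.67. Neither circRNA separated UUO from AC: mmu_circ_0004688 differed by 0.25 (95% interval from -1.08 to 1.59) and mmu_circ_0004687 by -0.66 (from -1.90 to 0.58).

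**Figure D1:**
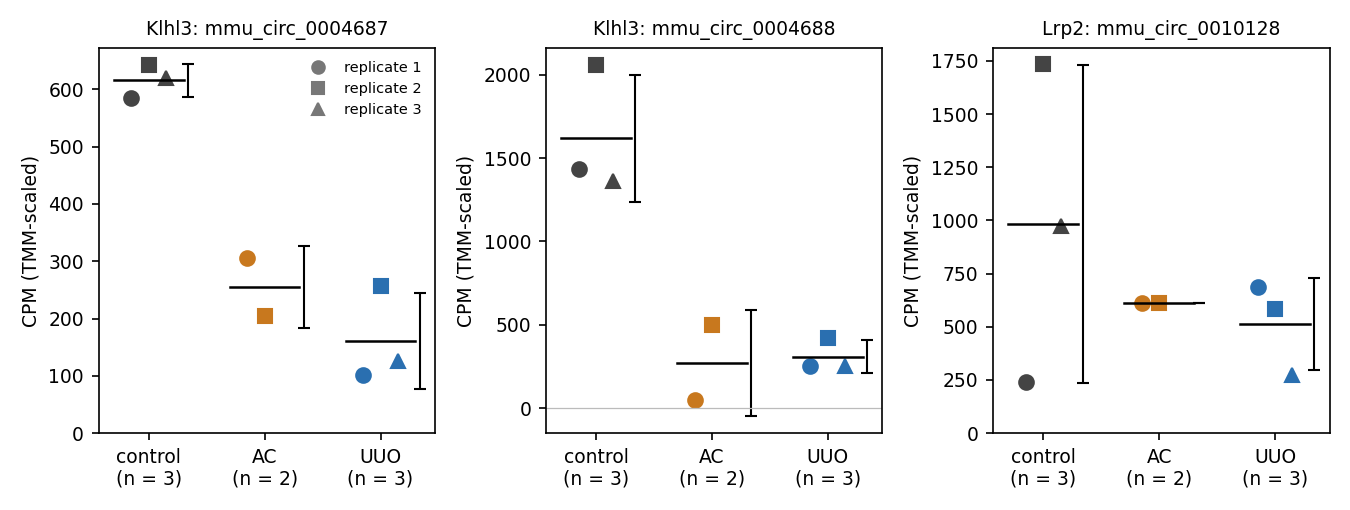
Levels of the 3 tested circRNAs in CPM (vertical axis, TMM-scaled, linear) in control, AC and UUO libraries; each symbol is 1 library, the horizontal line is the group mean and the bar beside it 1 SD. Both Klhl3 circRNAs have all control libraries above all injured ones, whereas the control libraries of the Lrp2 circRNA spread from 239 to 1736 CPM and enclose every injured library.

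The balance between both Klhl3 forms was alike in 7 of the 8 libraries. In control mmu_circ_0004688 made up 70.1%, 76.2% and 68.8% of Klhl3 counts. In UUO it made up 71.4%, 62.1% and 66.7%, and in AC replicate 2 70.8%. AC replicate 1 differed, with 2 of its 15 Klhl3 counts, or 13.3% (exact Clopper-Pearson 95% interval from 1.66% to 40.5%, counting error only). In that library mmu_circ_0004687 was not low among the injured: its 306 CPM were the highest of the 5.

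The UUO share was 66.7% ± 4.68 (SD, n = 3) against 71.7% ± 3.98 (SD, n = 3) in control, a difference of -4.98 percentage points (two-sided exact permutation p = 0.3, smallest possible 0.1). With 3 against 3 libraries no shift between the forms could reach 0.05, and the UUO libraries had 14 to 29 Klhl3 counts each. For AC the share difference was -29.6 percentage points (exact permutation p = 0.3), and -0.87 without AC replicate 1.

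No change of the Lrp2 circRNA was called, and its control libraries differed widely. It had 9, 92 and 47 counts in control replicates 1 to 3, 26 and 21 in AC, and 27, 25 and 13 in UUO. As levels these were 239, 1736 and 972 CPM in control, 613 and 613 CPM in AC, and 685, 584 and 273 CPM in UUO. The lowest and the highest library of all 8 were both controls, so the control range enclosed both injured groups. The 2 AC libraries were at nearly the same level, and UUO replicate 3 was apart from the other UUO libraries.

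Since Lrp2 has 1 circRNA, its host sum holds the same counts, fitted beside other sums. The sum had a log2 fold change of -1.03 in UUO (SE 0.50, 95% interval from -2.07 to 0.02, edgeR, adjusted p = 0.263) and -0.75 in AC (SE 0.57, from -1.93 to 0.43, adjusted p = 0.580). UUO differed from AC by -0.28 (from -1.50 to 0.94, adjusted p = 0.945). Single libraries moved these values. Without control replicate 1 the UUO change was -1.48 and passed (adjusted p = 0.0446), but the same counts fitted per circRNA did not (mmu_circ_0010128, -1.41, adjusted p = 0.0782, edgeR). Without control replicate 2 the sum was at -0.31 (adjusted p = 0.827), and without UUO replicate 3 at -0.65 (adjusted p = 0.610). In AC the sum was at -1.19 and -0.05 without control replicates 1 and 2.

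The spread of the Lrp2 circRNA among controls was wide for its abundance. Its highest control level was 7.26 times its lowest. Of 396 circRNAs within 2-fold of its mean control level, 9 (2.27%) had a ratio at least as large, and the median ratio was 1.62. Control replicate 1 was not low in Klhl3, which held 0.175% of its counts against 0.220% and 0.167% in control replicates 2 and 3. Lrp2 held 0.0205% there against 0.141% and 0.0816%. The circRNA of Slc7a8, an amino acid transporter of the proximal tubule (mmu_circ_0000539), stood at 1835, 1831 and 2274 CPM over the controls. The 2 tested circRNAs of Slc4a4, a bicarbonate cotransporter of the same segment, were at 877, 717 and 620 CPM (mmu_circ_0012844) and at 160, 585 and 103 CPM (mmu_circ_0012846). The latter was, like Lrp2, highest in control replicate 2, but it was lowest in control replicate 3. That order was not particular to proximal tubule hosts. Of Stk39, mmu_circ_0010116 was also highest in control replicate 2, at 160, 887 and 414 CPM over the controls. Its mmu_circ_0001027 was lowest there, at 2047, 1227 and 1530 CPM.

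**Figure D2:**
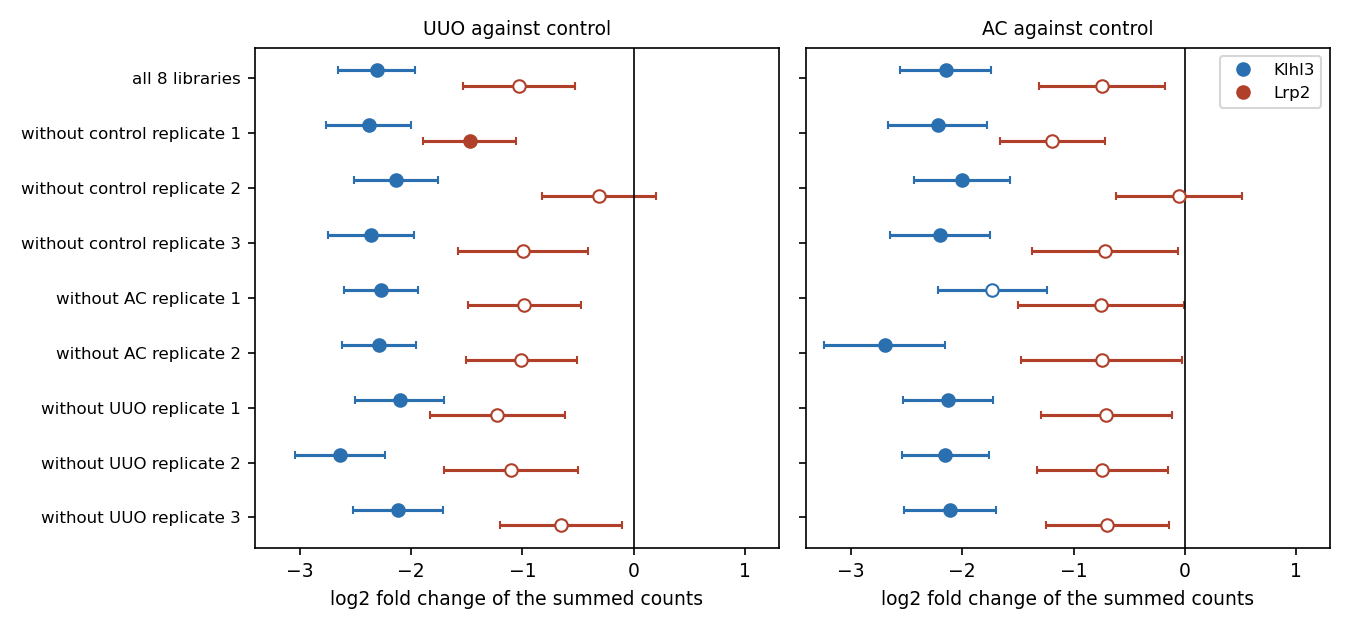
Log2 fold changes of the summed counts of Klhl3 and Lrp2 (horizontal axis, bars are standard errors) with all 8 libraries and after leaving out each library in turn, for UUO and AC against control; filled symbols have an edgeR adjusted p under 0.05. Klhl3 in UUO stays between -2.63 and -2.10, whereas Lrp2 in UUO moves between -1.48 and -0.31 with the library left out.

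Set against each other within a library, Klhl3 had more counts than Lrp2 in every control, and a smaller lead or none after injury. The log2 ratio of their summed counts, with 0.5 added to each, was 3.03, 0.63 and 1.02 in control, -0.77 and 0.19 in AC, and -0.92, 0.21 and 0.45 in UUO. All 5 injured libraries were below all controls. The UUO mean differed from control by -1.65 and the AC mean by -1.85, but with 3 against 3 and 2 against 3 libraries the two-sided exact permutation p were 0.1 and 0.2, and neither design can go below 0.1. Pooled, the 5 injured libraries differed by -1.73 (exact permutation p = 0.0179, the smallest possible, and 0.143 adjusted over 16 tests). Without control replicate 1, the library with 9 Lrp2 counts, that difference was -0.997 (exact permutation p = 0.0952). The rings are of unknown length, and no test of a difference in change between Klhl3 and Lrp2 passed after adjustment.

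**Figure D3:**
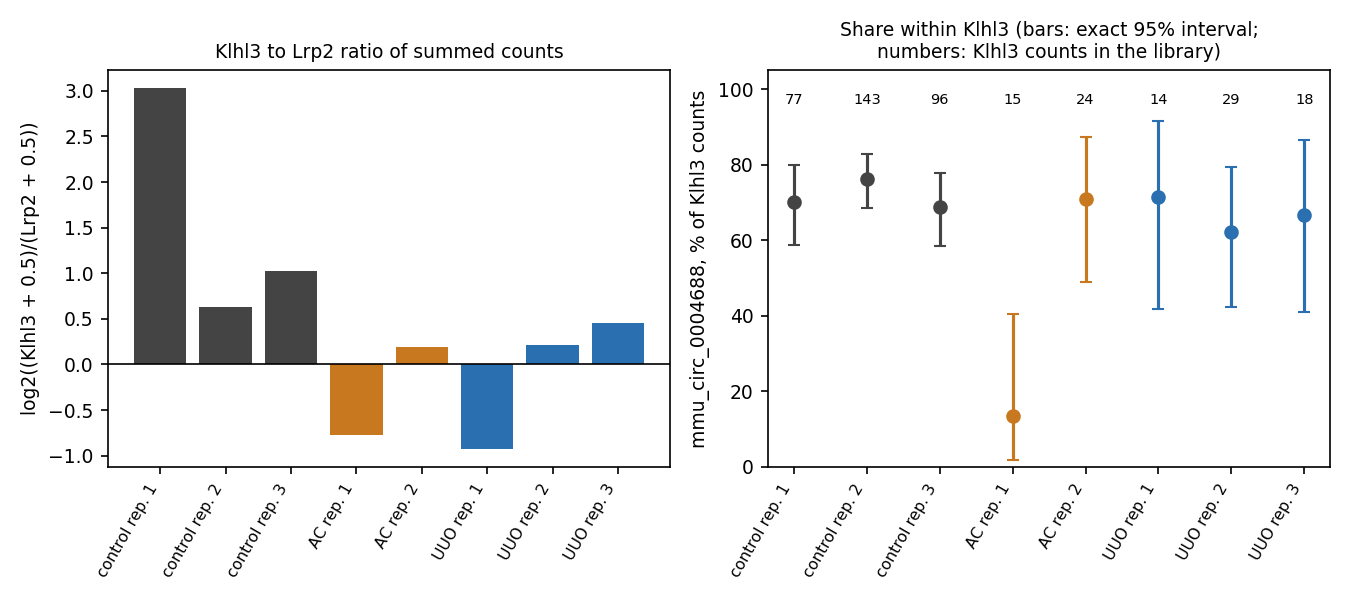
Left, log2 ratio of Klhl3 to Lrp2 summed counts (0.5 added to each) in each library; right, percentage of Klhl3 counts held by mmu_circ_0004688, with exact 95% binomial intervals and the Klhl3 count of each library above. The 3 controls have the highest ratios, and AC replicate 1 stands apart in the share at 13.3%.

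The rest of the WNK pathway was sparsely represented among circRNAs. Of 26 other genes on this list 13 had rows, with 31 circRNAs, and 5 circRNAs of Stk39 and Klhl2 could be tested. In UUO 1 of these 5 was called lower, as were 1.5% of all circRNAs, and 0 higher, with a median log2 fold change of -0.17, against 0.02 over all tested circRNAs. In AC 0 of 5 were called (edgeR; 1 had an unadjusted p under 0.05), with a median of -0.12 against -0.02. Of the genes for WNK kinases, which KLHL3 marks for degradation, only Wnk1 had a row, and Wnk2, Wnk3 and Wnk4 had none. Wnk1 had 6, 10 and 7 counts in all libraries of control, AC and UUO together. Cul3, the ligase scaffold, had 11, 12 and 4. Neither could be tested.

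Stk39, which encodes SPAK, was the richest circRNA source on this list, with 9 circRNAs, of which 4 were tested. Its main circRNA, mmu_circ_0001028, stood at 5796, 7077 and 6864 CPM in control, 4335 and 4784 CPM in AC, and 3933, 4740 and 3989 CPM in UUO. No injured library reached the controls. It fell by 0.64 in UUO (log2 scale, SE 0.18, adjusted p = 0.0499, edgeR); in AC the change was -0.53 (SE 0.20, adjusted p = 0.215). This call was at the threshold and held in 1 of 8 fits that leave out a library. The Stk39 sum fell by 0.60 in UUO (SE 0.16, adjusted p = 0.0240, edgeR), a call held in 4 of 8 such fits, and changed by -0.37 in AC (adjusted p = 0.328). The UUO change of the Stk39 sum was 1.52-fold, beside 4.95-fold for Klhl3; that difference was not tested.

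Klhl2, the closest relative of Klhl3 on the list and likewise an adaptor for WNK kinases, had 1 circRNA (mmu_circ_0001679) with a log2 fold change of 0.16 in UUO (SE 0.40) and -0.15 in AC (SE 0.46). Oxsr1, which encodes OSR1, had a summed change of 0.36 in UUO (SE 0.83) and 1.29 in AC (SE 0.89). None of these passed the threshold. Per host sum, 1 of 3 tested genes of the list was called lower in UUO, Stk39, and 0 of 3 in AC, beside 2.78% and 1.43% of all host sums.

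Among 32 genes of distal nephron transport 4 had rows, and 0 of 4 tested circRNAs were called in either comparison (edgeR; 0 in UUO and 1 in AC had an unadjusted p under 0.05). As host sums 1 of 3 was called lower in UUO, where 2.78% of all sums were. This was Slc8a1, the sodium-calcium exchanger gene, with sums of 21, 12 and 29 counts in control, 3 and 7 in AC, and 3, 4 and 5 in UUO. It fell by 2.34 in UUO (SE 0.70, adjusted p = 0.0499, edgeR), and of the 8 other settings in which it was tested with all libraries, 1 kept the call. None of the 3 Slc8a1 circRNAs passed the filter alone, so only their sum was tested. In AC the Slc8a1 sum changed by -1.79 (SE 0.79) and was not called (adjusted p = 0.283, edgeR). Trpm7, a channel kinase, had a summed change of -0.40 in UUO (SE 0.31), and Atp2b4, a plasma membrane calcium pump, 0.02 (SE 0.69).

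**Figure D4:**
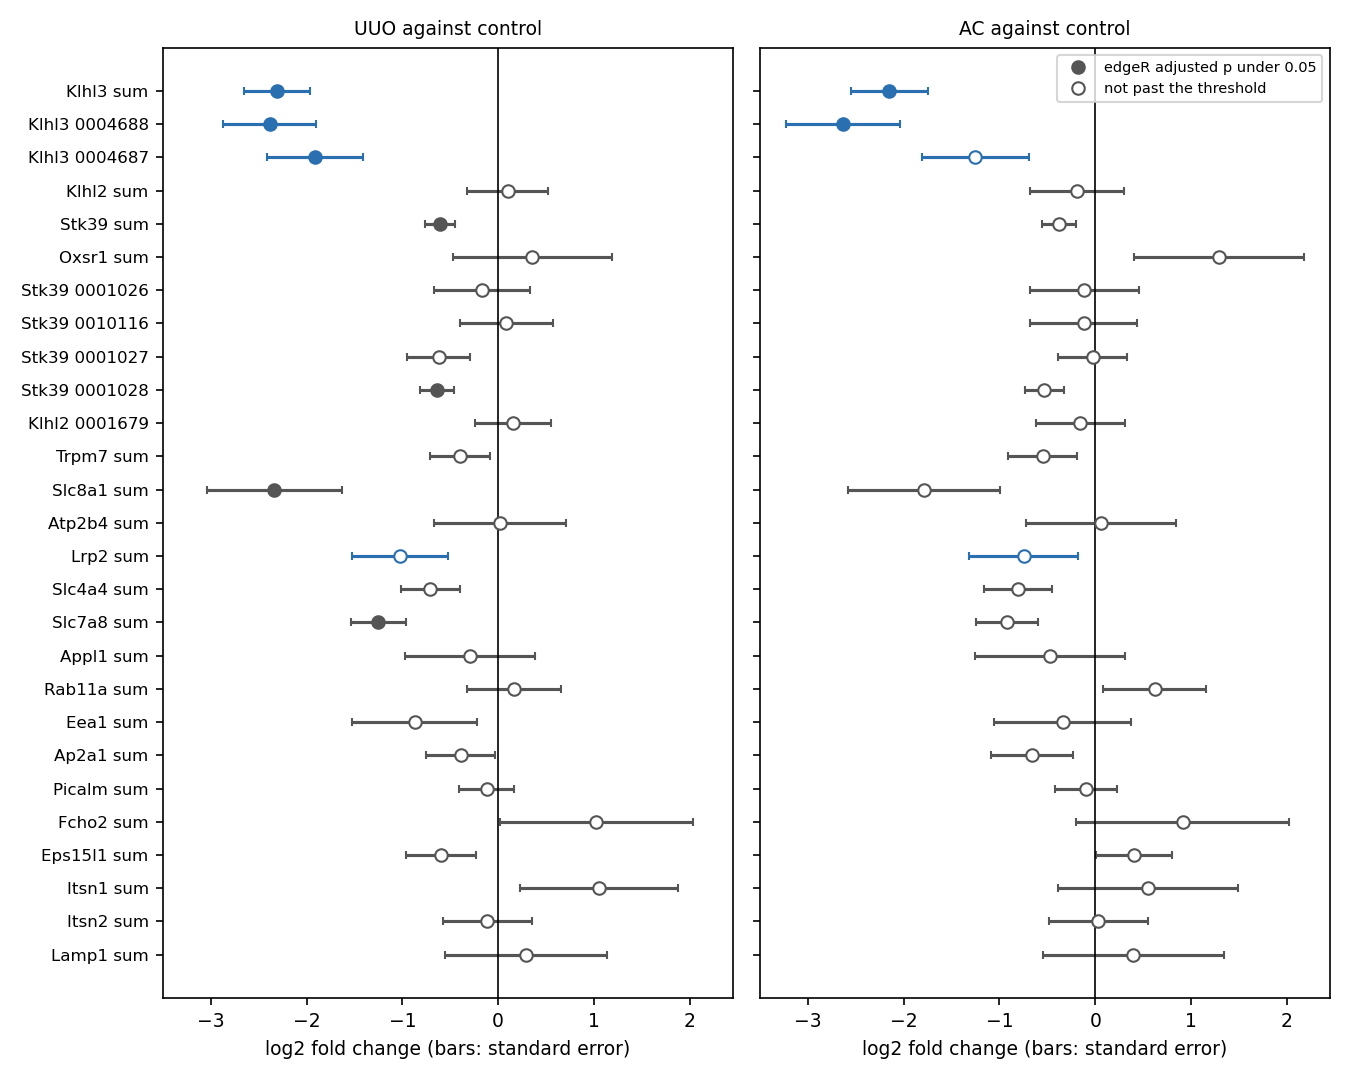
Log2 fold changes with standard errors for Klhl3 and Lrp2 (blue) and for tested genes of the WNK, distal transport, proximal tubule and megalin endocytosis lists (grey), in UUO and AC against control; "sum" is the host sum and numbers are circBase identifiers. Klhl3 and Slc8a1 lie near -2 or below in UUO, and most megalin endocytosis genes lie within 1 unit of 0.

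The genes of megalin-dependent endocytosis showed no called change. Of 40 genes beside Lrp2, 16 had rows and 11 circRNAs of 9 hosts were tested; 0 were called in UUO and 0 in AC (edgeR; 0 and 0 had an unadjusted p under 0.05). Their median log2 fold change was -0.01 in UUO and 0.25 in AC, against 0.02 and -0.02 over all circRNAs. As host sums 10 were tested and 0 called. The most abundant were Picalm, a clathrin assembly protein, at -0.12 in UUO (SE 0.29), Eps15l1, an endocytic adaptor, at -0.60 (SE 0.37), and Ap2a1, a subunit of the clathrin adaptor AP-2, at -0.39 (SE 0.37). In AC Picalm was at -0.10 (SE 0.33), Eps15l1 at 0.40 (SE 0.40) and Ap2a1 at -0.66 (SE 0.43). The sign of Eps15l1 thus differed between UUO and AC.

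Of the 2 proximal tubule hosts other than Lrp2, 3 circRNAs were tested, and 1 was called lower in UUO and another 1 in AC, beside 1.5% and 1.43% of all circRNAs. The Slc7a8 circRNA named above was at 1013 and 1138 CPM in AC and 787, 747 and 1050 CPM in UUO, all below its control levels. It fell by 1.19 in UUO (SE 0.27, adjusted p = 0.0245, edgeR), a call held in 4 of 8 fits without 1 library; in AC the change was -0.88 (adjusted p = 0.175). For Slc4a4, mmu_circ_0012844 had 33, 38 and 30 counts in control, 10 and 4 in AC, and 23, 15 and 21 in UUO. It fell by 2.02 in AC (SE 0.51, adjusted p = 0.0400, edgeR), a call lost in each of 8 fits without 1 library, with a value of -0.68 in UUO (adjusted p = 0.439). Its other tested circRNA, mmu_circ_0012846, was at -0.66 in UUO (SE 0.72) and 0.09 in AC (SE 0.78), neither called. As host sums, Slc7a8 fell by 1.25 in UUO (adjusted p = 0.00943, edgeR) and Slc4a4 changed by -0.71 (adjusted p = 0.200). Slc7a8 has 1 circRNA, so its sum holds the same counts and is no further result. In AC the Slc7a8 sum changed by -0.92 and the Slc4a4 sum by -0.80, neither called (adjusted p = 0.143 and 0.283, edgeR).

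Across the 8 libraries the host sums most like Klhl3 were 1300010F03Rik (Pearson r = 0.965 of log2 CPM), Rere (0.951), Esrrg (0.948), Fbxo44 (0.948) and Ogdh (0.935), of 1184 other tested hosts. Stk39 was the next, at 0.925. Of these, Ogdh, an enzyme subunit of the mitochondrial citric acid cycle, fell by 1.09 in UUO (adjusted p = 0.000704, edgeR) and by 0.85 in AC (adjusted p = 0.0176). The sum of 1300010F03Rik fell by 1.38 in UUO (adjusted p = 0.00393, edgeR). Its AC change of -0.99 did not pass (adjusted p = 0.0898, edgeR). Esrrg, an orphan nuclear receptor, had a change of -1.22 in UUO that did not pass (adjusted p = 0.226). Rere (-0.43, adjusted p = 0.0942, edgeR) and Fbxo44 (-1.60, adjusted p = 0.127) were not called in UUO either. In AC Rere, Esrrg and Fbxo44 were not called. These correlations describe 8 points that share their grouping, in which the 3 controls are high. Choosing hosts by likeness to Klhl3 in these libraries favours hosts that fall after injury, so their p-values are no separate evidence.

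Lrp2 had other neighbours: Arhgap5 (r = 0.862), Txndc11 (0.851), Farsa (0.835), Pias1 (0.835) and Fbxl17 (0.83). In none of these was a change called; their UUO values lay between -0.85 and -0.14. Lrp2 itself ranked 303 among the hosts by likeness to Klhl3, with r = 0.394 over the same 8 libraries.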

How the data were processed

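The members, gene lists and tests were chosen with earlier results of these data known. The deposited counts are whole numbers per circRNA and library, without normalization per the file headers. The second deposited table is a signal equal to each count over a constant of its library (8718 to 11941); multiplied back, 100% of values were whole within 0.01. The submitters' processing notes name build mm9, HISAT2 and StringTie. Which caller found the circular junctions was not given in the sources used here. The same holds for reads shared between circRNAs of a host, so the split between Klhl3 forms is uncertain. Coordinates and sequences are not printed because the annotation used was GRCm38.

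Counts were tested with edgeR 4.0.16 in R 4.3.3 (quasi-likelihood test, TMM factors, all 8 libraries in 1 fit of 3 groups), per circRNA and again on counts summed per host; 32 rows without a host entered no sum. The default filter (a count of 10 in enough libraries, a total of 15) left 1471 circRNAs, with between 82.5% and 84.8% of each library's counts, and 1185 host sums. P-values were adjusted by Benjamini-Hochberg over all features (threshold 0.05); standard errors are the change over the square root of F. Ratios, shares and log2 CPM (prior count of 2) were compared by two-sided exact permutation. The labels do not say that libraries came from separate animals, so p-values measure the spread between libraries, which may be technical. Named were all members, the listed genes past the threshold with up to 3 abundant others per list, and the 5 hosts most like each member. No pairing was used. Same-numbered libraries did not deviate together, but the deviations of the 2 AC libraries mirror each other, so this check is weak. Alternatives were other normalizations (RLE, library totals, the deposited constant), DESeq2 1.42.0, limma-voom 3.58.1, no filter, a total of at least 80, only the groups compared, a replicate block and each library left out. A run on simulated counts, with changes placed in UUO alone, served as a check of the code and does not measure error rates in these data.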

Additional observations from a re-analysis of the deposited data

Results flagged for a closer look

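Each library of the pooled 5 injured ones was checked for standing apart from the other 4 (the gap to its nearest neighbour against the whole range, Dixon's 95% limit, which chance passes in about 1 of 20 groups). The check was run on each tested circRNA of both hosts, both host sums, their log2 ratio and the share. Several of these rest on the same counts, and the rate of 1 in 20 holds for each check, not for the whole set. UUO replicate 3 was apart for Lrp2, with mmu_circ_0010128 at 273 CPM and the Lrp2 sum at 242 CPM. The next library was at 584 and 520 CPM. Both values of UUO replicate 3 rest on the same 13 counts, scaled in separate fits. AC replicate 1 was apart in the share of mmu_circ_0004688 among Klhl3 counts, at 13.3% where the next library was at 62.1%.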

How the results depend on the processing

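The UUO and AC calls of the Klhl3 sum held under each of 9 other settings with all libraries (largest adjusted p 0.000900 and 0.0104, edgeR, DESeq2 or limma-voom), and Lrp2 passed in none of these. With the deposited constant in place of library totals, the median change over circRNAs shifted to -0.26 in UUO and -0.34 in AC, and calls were 11 higher and 26 lower in UUO against 42 and 22, and 7 and 22 in AC against 28 and 21. Over the 9 settings the Klhl3 sum lay between -2.55 and -2.23 in UUO. Of the members' circRNAs, the number called in UUO went from 2 to 1 with limma-voom and with no filter, and in AC from 1 to 0 with only the groups compared. No sign of pairing by replicate number was seen. Correlations of same-numbered deviations lay between -0.11 and 0.04, none of 7 pairs passed 0.1, and 0 of 8 libraries correlated best with their own number. The deviations of the 2 AC libraries from their mean mirror each other, so this weak check cannot exclude a pairing. With the replicate block the members' circRNAs called were 1 in UUO and 0 in AC.

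Leaving out 1 library at a time, the number of members' circRNAs called lay between 0 and 2 in UUO and 0 and 1 in AC. The Lrp2 sum lay between -1.48 and -0.31 in UUO, and the Klhl3 sum between -2.70 and -1.73 in AC. For UUO against AC the Klhl3 sum lay between -0.54 and 0.41, the Lrp2 sum between -0.52 and 0.043, the log2 ratio between -0.27 and 0.69 and the share between -4.11 and 53.4 percentage points. Of both injuries against control the Lrp2 sum lay between -1.28 and 0.058 and the log2 ratio between -2.19 and -0.997. The direct difference of UUO from AC, which lay between -0.68 and 2.65 for mmu_circ_0004688, changed sign there without AC replicate 1 (-0.68) and without UUO replicate 2 (-0.036), and for mmu_circ_0010128 without UUO replicate 3 (0.050). Fits that left AC with 1 library take its spread from the remaining groups. The causes were not tested. Depth limits every statement on mmu_circ_0004689 and on the share in injured libraries.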
